A study of Oryza sativa Indica Group with 45 samples.

Results

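Labdane diterpenoid synthesis genes of rice were followed through the leaves and roots of a hybrid and its parents. The set comprised the cyclase genes CPS2, CPS4, KSL4 and KSL7, the cytochrome P450 genes CYP99A2, CYP99A3, CYP76M5, CYP76M7 and CYP71Z7, and a gene named MS. Genes were matched by name alone: a gene belonged where its RefSeq symbol or one of its synonyms, with or without the prefix Os, was on this list. The names themselves were chosen with earlier results of these data known. All 10 names matched exactly 1 gene each, of 17905 genes that had a probe set of their own on the array. KSL7 had 2 probe sets and the other genes 1, which gave 11 probe sets.

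Labdane-related diterpenoids are the main phytoalexins of rice, small antimicrobial compounds that leaves make on infection, and some of them, above all the momilactones, are also released by roots and inhibit the growth of neighbouring plants. Their synthesis starts in the plastid from geranylgeranyl diphosphate, which a copalyl diphosphate synthase (CPS) folds into either the ent or the syn form and a kaurene synthase-like enzyme (KSL) then closes into a tricyclic olefin. P450 enzymes oxidise the olefin further. CPS4 makes the syn form and KSL4 turns it into the precursor of the momilactones, which CYP99A2 and CYP99A3 oxidise. CPS2 makes the ent form for defence compounds and KSL7 turns it into the precursor of the phytocassanes, which CYP71Z7 and CYP76M7 hydroxylate. The momilactone genes lie side by side on chromosome 4 and most of the phytocassane genes on chromosome 2.

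Transcript levels were measured on Affymetrix Rice Genome Arrays in the indica hybrid MRP5401, its female parent PMS80 (called the B parent here) and its male parent PR319 (the R parent). Leaves and roots were taken from seedlings of 14 days (young leaf, young root) and from plants of 40 to 60 days (mature leaf, mature root). Flag leaves came from plants of 90 days. Each of the 15 groups of genotype and stage held 3 arrays, called biological replicates by the labels. One protocol, hydroponic culture, is given for all groups and no elicitor, pathogen or other treatment for any, and how many plants stood behind an array is not given in the sources used here.

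Levels below are log2 intensities and differences between groups are differences of mean log2 intensity ± SE from 1 limma fit over all 45 arrays, with p-values adjusted over all probe sets tested. A gene is called higher or lower where its adjusted p was under 0.05 and at least 1 of the compared means reached 5. A mean under 5 is close to background. Such means have no order. Where the lower of the compared means was that low it was set to 5, and the difference is then written as "at least". The bar of 5 in at least 1 group left 24130 probe sets to test. Of the 10 genes 9 passed it, KSL4 only through the roots of the R parent and CYP76M5 only through its young roots, so that both had to differ there to be tested at all. The arrays had median intensities between 6.72 and 7.90, mean correlations within a group between 0.977 and 0.995, and no identical pair. The number of arrays, 3 per group, limits the precision of every value.

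Some names need care. MS matched a gene on chromosome 4 that lies 1122 protein-coding genes away from CYP99A2 and carries no description in the annotation used here. The dehydrogenase gene of the momilactone pathway, momilactone A synthase, is listed separately as MAS and sits inside the momilactone stretch. No role is therefore given to MS, and counts are given with and without it. CYP76M7 was placed on chromosome 6 by the annotation, away from the phytocassane stretch, and 1 of its locus synonyms belongs to the number series of the chromosome 2 genes. Whether this entry is the CYP76M7 of the phytocassane stretch is not settled here, so nothing is drawn from its low level. Its probe set stayed near background in all 15 groups, with the highest mean, 3.97 ± 0.98 (SD, n = 3), in young roots of the R parent, where 1 array read 5.10 and the others 3.44 and 3.36. It was not tested. Of the 2 probe sets of KSL7 the first reached 5 in 12 groups and the second only in the flag leaves. The first, with the higher mean over all arrays, stands for the gene.

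Young roots of the R parent stood apart. There 9 of the 10 genes reached a mean of 5, against 5 in young roots of the B parent and 6 in the hybrid. Without KSL4 and CYP76M5 the counts were 7 in the R parent, 5 in the B parent and 6 in the hybrid. The share of all probe sets that reached 5 in each group was not counted, so these counts are a description. Of the 9 genes tested, KSL4 and CYP76M5 met the level bar, a mean of 5, only through R parent roots, so that their differences there were set in part by the bar and are given as a description. Of the other 7, 6 were higher in the R parent than in the B parent and none was lower, where 25.8% of all tested probe sets were called in either direction and 15% upward. MS did not pass. The median difference over the 7 genes was 4.88, against 0.05 over all probe sets tested.

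The syn branch, which leads to the momilactones, was read by its 2 cyclases first. CPS4, the syn-copalyl diphosphate synthase, stood at 9.58, 9.80 and 9.93 on the R parent arrays, at 3.24, 5.82 and 6.12 in the B parent and at 6.31, 6.27 and 5.81 in the hybrid. All R parent arrays lay above all others, and the R parent exceeded the B parent by 4.71 ± 0.59, or 26.1-fold (limma, adjusted p = 6.45e-08). KSL4, the cyclase that makes the momilactone precursor, stood at 8.99, 9.13 and 9.10 in the R parent. It lay at 2.77, 2.84 and 2.97 in the B parent and at 3.56, 3.01 and 3.18 in the hybrid, near background in both, so that the R parent was higher by at least 4.07, or at least 16.8-fold, which is given as a description.

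Both P450 genes of the branch followed. CYP99A3 stood at 12.34, 12.31 and 12.28 in young roots of the R parent, at 4.64, 7.71 and 7.04 in the B parent and at 9.19, 8.99 and 8.41 in the hybrid. The 3 genotypes did not overlap, with the R parent above the B parent by 5.85 ± 0.50 (limma, adjusted p = 1.4e-11). CYP99A2 stood at 10.88, 11.30 and 11.29 in the R parent, at 3.67, 7.46 and 7.70 in the B parent and at 7.07, 6.68 and 7.38 in the hybrid. Its difference between the parents was 4.88 ± 0.67 (limma, adjusted p = 4.43e-07), while the B parent and the hybrid overlapped. The first B parent array set part of these sizes. Left out, it gave R minus B parent differences of 3.80 for CPS4, 4.94 for CYP99A3 and 3.58 for CYP99A2, all still called.

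The ent branch, which leads to the phytocassanes, was also higher in young roots of the R parent than in those of the other genotypes. CPS2, the ent-copalyl diphosphate synthase of defence, stood at 9.29, 8.72 and 8.61 in the R parent, at 2.36, 2.97 and 4.35 in the B parent and at 3.04, 3.30 and 2.37 in the hybrid. The R parent was higher than the B parent by at least 3.88, or at least 14.7-fold (limma, adjusted p = 1.23e-06), with the B parent and hybrid arrays all near background. KSL7, the cyclase of the phytocassane precursor, stood at 9.85, 9.53 and 9.59 in the R parent, while the B parent arrays read 2.78, 4.95 and 5.22 and the hybrid arrays 5.53, 5.36 and 5.08. The R parent exceeded the B parent by at least 4.65 (limma, adjusted p = 1.22e-13). The second probe set of KSL7 stayed between 2.97 and 3.08 on all 9 young root arrays and showed none of this.

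CYP71Z7, a P450 that hydroxylates the phytocassane precursor, stood at 10.74, 9.77 and 9.82 in young roots of the R parent, at 4.57, 5.64 and 6.34 in the B parent and at 5.73, 6.01 and 5.56 in the hybrid. The difference between the parents was 4.59 ± 0.83 (limma, adjusted p = 4.55e-05), and 4.12 without the first B parent array. CYP76M5, a P450 gene at the edge of the chromosome 2 stretch, stood at 6.25, 5.35 and 5.44 in the R parent and at 2.396 to 3.51 on the other 6 young root arrays, so that its difference was at least 0.68. MS, in contrast, was high in young roots of all 3 genotypes, at 11.09 ± 0.13 in the B parent, 11.39 ± 0.03 in the hybrid and 11.56 ± 0.14 in the R parent (SD, n = 3), and the parents differed by 0.47 ± 0.26, which did not pass (limma, adjusted p = 0.195).

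**Figure D1:**
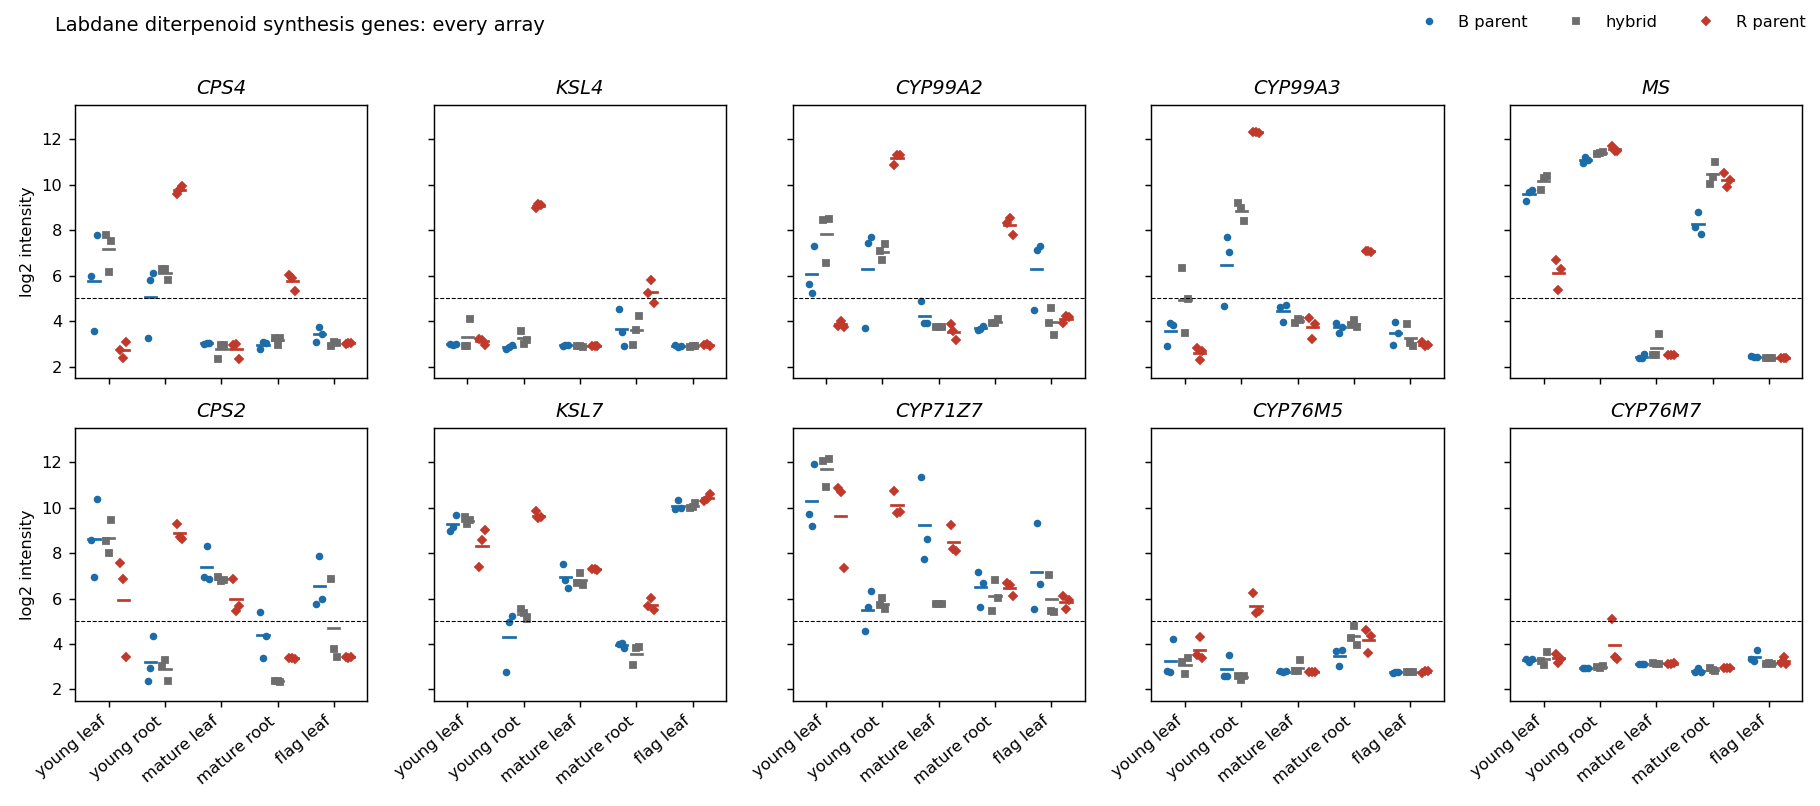
Log2 intensity of each gene on every array (points, 3 per group) with the group mean (short bar) by stage and genotype; the dashed line marks 5, under which values are close to background. Leaving aside MS and CYP76M7, the R parent arrays (red) of young roots lie above all B parent (blue) and hybrid (grey) arrays in every panel. For MS the difference between the parents did not pass, and for CYP76M7 the means were near background.

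The hybrid lay below the R parent in young roots. Of the 7 genes not set by the bar, the 6 that separated the parents were also lower in the hybrid than in the R parent, where 18.6% of all tested probe sets were called in either direction and 9.62% downward. For the 5 with both means at 5 or more the hybrid minus R parent difference ranged from -4.34 ± 0.83 for CYP71Z7 to -3.45 ± 0.50 for CYP99A3, and CPS2 was at least 3.88 lower. Against the B parent 2 of these 7 genes were higher in the hybrid, where 23.5% were called in either direction and 12.8% upward. CYP99A3 was higher by 2.4 ± 0.50 (limma, adjusted p = 0.000381) and stood between its parents, above every B parent array and below every R parent array. KSL7 was called at 1.01 ± 0.38 (limma, adjusted p = 0.0483), but without the first B parent array, which read 2.78, its difference was 0.24, and it did not pass with any 1 of the hybrid arrays left out. The hybrid minus B parent differences of CPS4 (1.07 ± 0.59), CYP99A2 (0.76 ± 0.67) and CYP71Z7 (0.25 ± 0.83) did not pass. KSL4, CPS2 and CYP76M5 were under 5 in both groups and so could not be called. Both comparisons share the hybrid arrays.

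Other features of the young root arrays moved beside these genes. The first B parent array was the lowest of its group for CPS4, KSL4, KSL7, CYP99A2, CYP99A3, CYP71Z7 and CPS2. With that array left out the differences between the parents called above were still called. The first R parent array had a median intensity of 7.41, and the others had 6.81 and 6.78. Leaf genes were also read in these roots. The 12 matched leaf markers, among them light-harvesting and Rubisco genes, averaged 9.29 ± 0.81 in young roots of the B parent, 11.58 ± 0.35 in the hybrid and 9.26 ± 0.48 in the R parent (SD, n = 3), against 13.54 to 14.28 in young leaves and 3.10 to 3.50 in mature roots. Between the parents the ranges over arrays were 8.80 to 10.23 and 8.70 to 9.58. There 2 markers were higher and 2 lower in the R parent (background 15% upward and 10.8% downward). The median difference of the leaf markers was 0.20. In the hybrid 12 of 12 leaf markers were higher than in the B parent (median 2.33, background 12.8% upward). Against the R parent 11 of 12 were higher in the hybrid (median 2.29, background 8.98% upward). PORA, a chlorophyll synthesis gene, was under 5 in young roots of both parents. The 10 root markers that reached 5, such as the silicon channel gene NIP2-1, averaged 9.19 in the B parent, 7.75 in the hybrid and 8.24 in the R parent, and IRT1 and PT2 were under 5 in all 3. The part of these values in the differences above was not tested. In whole organs, more cells of a type and more RNA per cell cannot be told apart.

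Mature roots also held P450 and cyclase genes of the momilactone branch higher in the R parent. Leaving aside KSL4 and CYP76M5, 5 of 7 genes were higher in the R parent than in the B parent and none was lower, where 53.5% of all tested probe sets were called in either direction and 25.7% upward. Without MS the count was 4 of 6. CYP99A2 stood at 8.33, 8.54 and 7.80 in the R parent, at 3.63, 3.65 and 3.80 in the B parent and at 3.91, 3.90 and 4.08 in the hybrid. The R parent was higher by at least 3.22, or at least 9.32-fold (limma, adjusted p = 6.28e-07).

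CYP99A3 stood at 7.10, 7.06 and 7.06 in mature roots of the R parent and at 3.48 to 4.03 on the other 6 arrays, a difference of at least 2.07 (limma, adjusted p = 7.42e-07). CPS4 stood at 6.04, 5.91 and 5.33 in the R parent and at 2.77 to 3.26 elsewhere, a difference of at least 0.76 (limma, adjusted p = 0.000116). Both genes were near background on every mature root array of the B parent and the hybrid. KSL4 was closest to the bar: its R parent arrays read 5.24, 5.80 and 4.79 where those of the B parent read 4.51, 3.50 and 2.91 and those of the hybrid 2.93, 3.59 and 4.24, which gave at least 0.28, again as a description.

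On the ent branch KSL7 alone separated the parents in mature roots, at 5.67, 6.04 and 5.49 in the R parent, 3.998, 4.03 and 3.82 in the B parent and 3.06, 3.81 and 3.88 in the hybrid (at least 0.74, limma, adjusted p = 0.000142). CPS2 was near background in mature roots, with means of 4.38, 2.36 and 3.36 in the B parent, hybrid and R parent, and 1 B parent array at 5.41. CYP71Z7 averaged 6.50 ± 0.78, 6.10 ± 0.67 and 6.46 ± 0.30 (SD, n = 3) in the same order, with overlapping arrays, and its difference between the parents was -0.04 ± 0.83. The hybrid was lower than the R parent for 4 of the 7 genes not set by the bar, with a background of 35.8% in either direction and 16.7% downward. These were CPS4, CYP99A2, CYP99A3 and KSL7. Against the B parent 1 gene, MS, was higher in the hybrid, with a background of 30.8% in either direction and 16.2% upward. MS stood at 10.04, 10.34 and 11.02 in the hybrid and 10.50, 9.91 and 10.21 in the R parent, above 8.15, 8.82 and 7.81 in the B parent, by 2.21 ± 0.26 in the hybrid (limma, adjusted p = 2.42e-08) and 1.94 ± 0.26 in the R parent (limma, adjusted p = 8.73e-08). Mature roots of the B parent held none of the 12 leaf markers at 5, and those of the hybrid and R parent 1 each. The root markers averaged 6.46 ± 0.33 in the B parent, 6.44 ± 0.16 in the hybrid and 7.66 ± 0.21 in the R parent (SD, n = 3). Of 10 root markers 5 were higher and 1 lower in the R parent than in the B parent. The background was 53.5% in either direction, 25.7% upward and 27.8% downward. The part of these values in the differences above was not tested.

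In young leaves the R parent was the lower of the parents for several of these genes. Of 9 genes 5 were lower in the R parent than in the B parent and none was higher, with a background of 42.9% in either direction and 27.1% downward. Without MS the count was 4 of 8. The hybrid was higher than the R parent for 6 of 9 genes, where 47.7% were called in either direction and 34.6% upward. The hybrid was higher than the B parent for 1 gene, CYP99A2, with a background of 33.7% in either direction and 22.3% upward. Its arrays overlapped and it did not pass without hybrid array 1 or 3 or B parent array 1 or 2. They stood at 8.47, 6.54 and 8.49 in the hybrid and 5.65, 5.25 and 7.29 in the B parent.

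MS separated the R parent from both other genotypes. It stood at 6.70, 5.38 and 6.28 in young leaves of the R parent, with 9.30, 9.67 and 9.75 for the B parent and 9.77, 10.30 and 10.38 for the hybrid. The R minus B parent difference was -3.45 ± 0.26 (limma, adjusted p = 2.38e-13). CPS4 was near background in young leaves of the R parent, at 2.72, 2.37 and 3.07, and stood at 6.003, 3.56 and 7.77 in the B parent and at 7.81, 6.14 and 7.52 in the hybrid. The hybrid exceeded the R parent by at least 2.15, or at least 4.45-fold (limma, adjusted p = 1.01e-07). CYP99A2 stood at 3.80, 4.01 and 3.76 in the R parent, so that the hybrid exceeded it by at least 2.83 (limma, adjusted p = 6.51e-06). KSL4, which acts between them in the pathway, stayed at or under 4.09 on all 9 young leaf arrays.

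The ent branch was read in young leaves of every genotype. KSL7 stood at 8.99, 9.14 and 9.66 in the B parent, 9.59, 9.27 and 9.44 in the hybrid and 7.37, 8.57 and 9.04 in the R parent. CYP71Z7 stood at 9.72, 9.19 and 11.93, at 12.08, 10.89 and 12.13, and at 10.88, 10.68 and 7.35 in the same order. CPS2 stood at 8.59, 6.97 and 10.37, at 8.52, 7.99 and 9.46, and at 7.57, 6.84 and 3.44. The third R parent array was the lowest for CPS2 and CYP71Z7, and the third B parent array the highest for CPS2, CPS4, KSL7, CYP99A2 and CYP71Z7. Without that B parent array the count of genes lower in the R parent was 2, CPS4 and MS. The KSL7 difference between the parents also did not pass without B parent array 2 or R parent array 1, nor that of CPS2 without R parent array 3. Between hybrid and R parent, CPS2 (1.45) and CYP71Z7 (0.92) no longer passed without the third R parent array, KSL7 (0.63) without the first, and CYP71Z7 without hybrid array 1 or 3. The R parent young leaf arrays also stood apart in signal. Their hybridization spike-ins, added in fixed amount, read 13.01 ± 0.38, those of the B parent arrays 11.92 ± 0.54 and those of the hybrid 11.12 ± 0.21, and their median intensity was 7.69 ± 0.29 against 7.13 ± 0.05 and 6.87 ± 0.11 (SD, n = 3). Of the 12 leaf markers 5 were lower and 1 higher in young leaves of the R parent than of the B parent (median difference -0.45). The background was 27.1% downward and 15.7% upward. The part of these values in the differences was not tested. The spike-in level as a covariate was an alternative chosen after seeing the data. With it the hybrid was called higher than the R parent for 2 genes, CPS4 and MS. CPS2 (3.04), CYP99A2 (2.82), CYP71Z7 (0.73) and KSL7 (0.25) lost their calls. The slope of that fit came from arrays within groups, while the spike-ins differed between the genotypes. The fit therefore cannot separate genotype from spike-in level, and nothing is drawn from the lost calls.

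In mature leaves 0 of 9 genes separated the parents with limma (background 13.8%), also at an unadjusted p under 0.05. CYP71Z7 was the 1 gene that separated the hybrid from a parent, lower than the B parent (background 9.77% in either direction and 6.02% downward) and lower than the R parent (background 6.12% and 4.46%). It stood at 5.76, 5.77 and 5.76 in the hybrid, at 11.34, 7.75 and 8.61 in the B parent and at 9.24, 8.17 and 8.11 in the R parent. The hybrid lay below every array of both parents. The hybrid minus B parent difference was -3.47 ± 0.83 (limma, adjusted p = 0.0048) and the hybrid minus R parent difference -2.74 ± 0.83 (limma, adjusted p = 0.0382). Without the first B parent array the former was -2.42 (limma, adjusted p = 0.0822), and the latter did not pass with any 1 of its 6 arrays left out. KSL7 and CPS2 were read in mature leaves of all genotypes, with means of 6.81 to 7.29 and 5.996 to 7.38. CPS4, KSL4, CYP99A2, CYP99A3, CYP76M5 and MS were under 5 in all 3 and so could not be called there. Hybridization spike-ins read 12.59 ± 0.14 in mature leaves of the B parent, 11.51 ± 0.18 in the hybrid and 11.67 ± 0.12 in the R parent (SD, n = 3). Their part in the differences was not tested.

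Flag leaves held KSL7 at its highest, without a difference between the genotypes that passed. It stood at 9.95, 10.34 and 9.999 in the B parent, 9.998, 10.01 and 10.22 in the hybrid and 10.28, 10.40 and 10.58 in the R parent. The R minus B parent difference was 0.33 ± 0.38 and the hybrid minus B parent difference -0.02 ± 0.38. The second probe set of KSL7 also reached 5 here, at 5.60 ± 0.37, 5.15 ± 0.19 and 5.06 ± 0.06 (SD, n = 3) in the same order. Its R minus B parent difference was -0.54 ± 0.16 (limma, adjusted p = 0.0148), opposite in sign to that of the first.

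CPS2 and CYP99A2 were the 2 of 9 genes lower in flag leaves of the R parent than of the B parent (background 11.7% in either direction and 5.59% downward). CPS2 stood at 5.76, 7.88 and 5.99 in the B parent and at 3.43, 3.38 and 3.42 in the R parent, with hybrid arrays at 6.87, 3.77 and 3.42. CYP99A2 stood at 4.47, 7.13 and 7.31 in the B parent and at 3.37 to 4.59 on the other 6 arrays. The hybrid was lower than the B parent for CYP99A2 alone (background 11% in either direction and 3.84% downward), and 0 of 9 genes separated hybrid and R parent with limma (background 9.78%), also at an unadjusted p under 0.05. These calls rested on single arrays. Without the second B parent array neither R minus B parent difference passed, and that of CYP99A2 also failed without the third or without any 1 of the R parent arrays. The hybrid minus B parent difference of CYP99A2 failed without B parent array 2 or 3 or hybrid array 1 or 3. CPS4, KSL4, CYP99A3, CYP76M5 and MS were under 5 in flag leaves of every genotype and so could not be called there. The same held for CPS2 and CYP99A2 between hybrid and R parent.

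**Figure D2:**
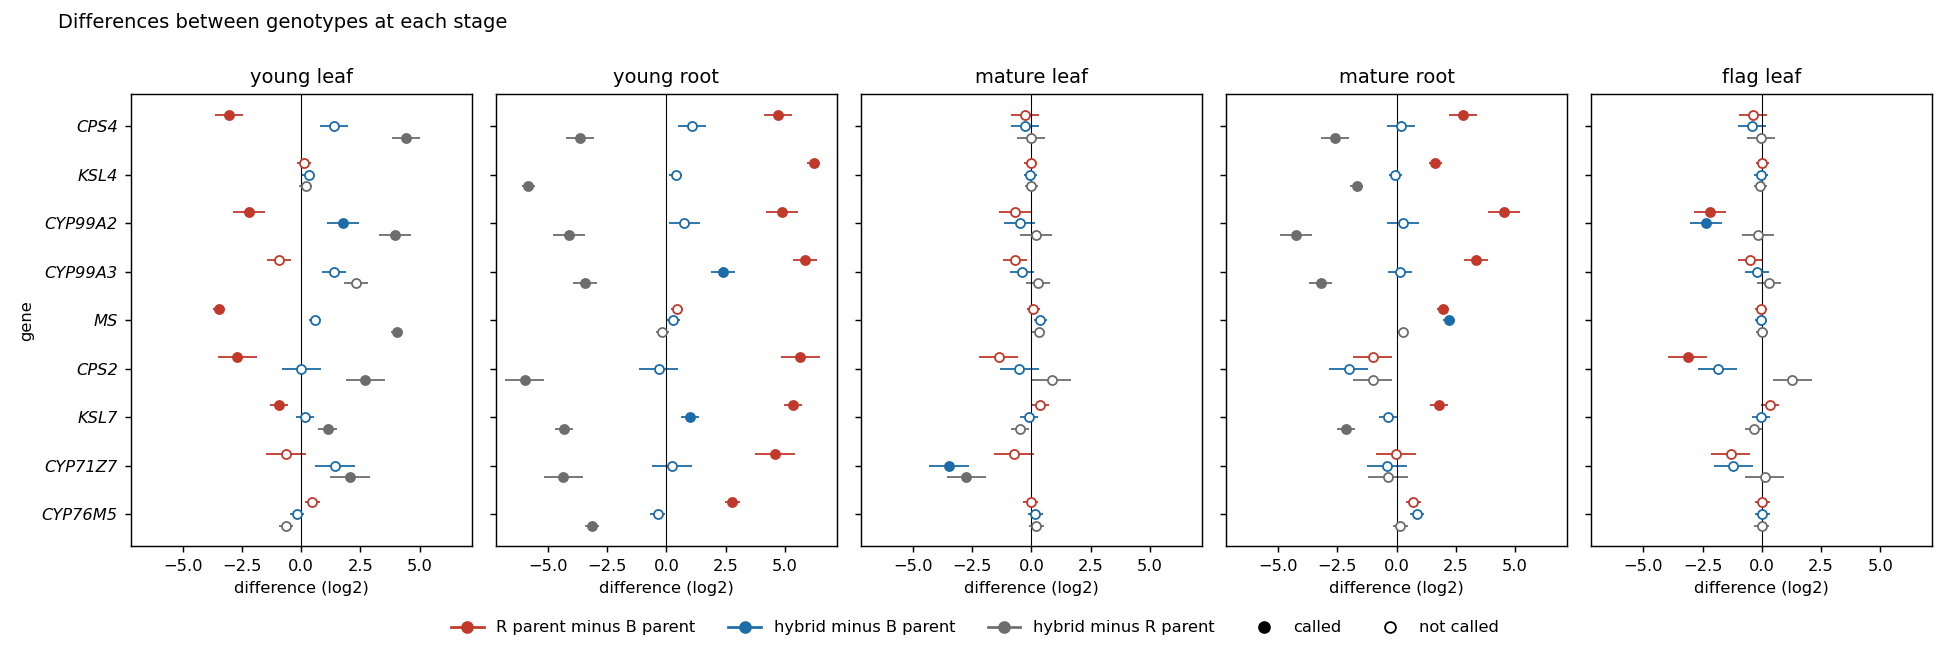
Differences between genotypes in mean log2 intensity (points, with SE from limma) for the 9 genes tested, by stage; filled points were called and open points were not, and differences are drawn as fitted even where the lower mean was near background. R minus B parent (red) is positive for 8 genes called in young roots and 6 in mature roots, and negative for 5 called in young leaves; the root counts include KSL4, and in young roots CYP76M5, which met the bar only through R parent roots.

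Roots and leaves were next compared within each genotype. In seedlings of the R parent 6 of the 7 genes not set by the bar were higher in root than in leaf and none was lower (background 68.3% in either direction and 49% upward), and CYP71Z7 did not pass. CPS2 no longer passed with the replicate block (2.35, limma, adjusted p = 0.0847), with the spike-in covariate (3.24, adjusted p = 0.065) or without the third R parent young leaf array (1.67, adjusted p = 0.0587). In the B parent 2 were higher, CYP99A3 and MS, and 3 lower, CPS2, KSL7 and CYP71Z7 (background 65.5% in either direction, 42.2% upward and 23.3% downward). The hybrid gave the same counts, 2 higher and 3 lower (background 57%, 33.2% and 23.8%), again with CYP99A3 and MS on the one side and CPS2, KSL7 and CYP71Z7 on the other. CYP71Z7 fell from a mean of 11.70 in young leaf to 5.77 in young root of the hybrid, a difference of -5.93 ± 0.83 (limma, adjusted p = 1.53e-07). In the R parent its means were 9.64 and 10.11. KSL7 was lower in root than in leaf by 4.11 in the hybrid (root minus leaf -4.11 ± 0.38, limma, adjusted p = 1.74e-11) and higher by 1.33 ± 0.38 in the R parent (limma, adjusted p = 0.00217). The R parent difference did not pass with the spike-in covariate (0.53, limma, adjusted p = 0.53). By the other probe set, near background in both tissues, it was -0.22.

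At 40 to 60 days the R parent had, of the same 7 genes, 4 higher in root (CPS4, CYP99A2, CYP99A3 and MS) and 3 higher in leaf (CPS2, KSL7 and CYP71Z7), with a background of 69.6% in either direction, 38.6% higher in root and 31% higher in leaf. In the B parent 1 gene was higher in root and 3 in leaf (background 69.4%, 41% and 28.4%), and in the hybrid 1 and 2 (background 69.6%, 41% and 28.6%). CPS2 in the R parent did not pass with the replicate block (-2.46, limma, adjusted p = 0.069), nor CYP71Z7 there without mature leaf array 1 (-1.67, adjusted p = 0.108) or mature root array 3 (-1.87, adjusted p = 0.0753), nor CYP71Z7 in the B parent without mature leaf array 1 (-1.68, adjusted p = 0.0754). MS had the widest root to leaf difference of these. In the R parent it stood at 10.20 ± 0.29 in mature root and 2.51 ± 0.01 in mature leaf (SD, n = 3), at least 5.20 higher in root, and in the B parent and the hybrid it was higher in root by at least 3.26 and at least 5.47.

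Levels fell with age in roots. From young to mature root 7 of the 7 genes not set by the bar fell in the R parent (background 61.3% in either direction and 37% downward), 4 in the B parent (background 54.9% and 33.5%) and 5 in the hybrid (background 59.1% and 34.2%), and none rose. CYP99A3 fell in all 3 genotypes: in the R parent from a mean of 12.31 to 7.07, a mature minus young difference of -5.24 ± 0.50 (limma, adjusted p = 4.3e-11), and to background from 8.86 (hybrid) and 6.46 (B parent). CPS2 fell in the R parent alone, from 8.88 to 3.36, and was near background in young roots of the others. The fall of CYP99A2 in the B parent came with overlapping arrays, and with the replicate block it did not pass (-1.64, limma, adjusted p = 0.0905), nor did that of CPS4 there (-1.43, adjusted p = 0.0629). Young and mature roots also differed in the leaf markers, as given above. The part of these in the falls was not tested.

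Levels in leaves were compared in the same way. From young to mature leaf 4 genes fell in the B parent (background 42.5% in either direction and 19.5% downward), 5 in the hybrid (background 49% and 28.8%) and 2 in the R parent (background 53.2% and 19.9%), and none rose. CPS4 and CYP99A2 fell to background in the B parent and the hybrid, MS fell to background in all 3 genotypes, and KSL7 fell in all 3. The fall of KSL7 in the R parent did not pass with array weights (-0.86, limma, adjusted p = 0.106), with the replicate block (-0.51, adjusted p = 0.443), by the other probe set (-0.12, adjusted p = 0.557) or without young leaf array 2 (-0.91, adjusted p = 0.0734) or 3 (-0.68, adjusted p = 0.165). That of CYP99A2 in the B parent was -1.83 as fitted (limma, adjusted p = 0.0244), with a mature leaf mean under 5. It did not pass without the level filter (limma, adjusted p = 0.0622), with the block (adjusted p = 0.135) or with the covariate (-1.42, adjusted p = 0.138). Nor did it pass without young leaf array 3 (-1.22, adjusted p = 0.185) or mature leaf array 2 or 3 (adjusted p = 0.0759 and 0.079). From mature to flag leaf KSL7 rose in every genotype, by 3.16 ± 0.38 in the B parent, 3.26 ± 0.38 in the hybrid and 3.13 ± 0.38 in the R parent (limma, adjusted p = 1.41e-08, 1.02e-08 and 1.48e-08). CYP99A2 rose in the B parent, with overlapping arrays. CPS2 fell in the R parent and, with overlapping arrays, in the hybrid. CYP71Z7 fell in the R parent and, with overlapping arrays, in the B parent. The calls of CYP99A2, of CPS2 in both genotypes and of CYP71Z7 in the B parent each failed with at least 1 array left out. Without it the adjusted p reached 0.0814 for CYP99A2, 0.182 for CPS2 of the hybrid, 0.0537 for CPS2 of the R parent and 0.377 for CYP71Z7. The counts were 2 up and 1 down in the B parent (background 46.8% in either direction, 24.6% up and 22.1% down), 1 and 1 in the hybrid (45.1%, 27% and 18.1%) and 1 and 2 in the R parent (48%, 23.7% and 24.3%).

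Whether the difference between the parents itself changed with the tissue was tested directly. Between young root and young leaf the R minus B parent difference moved upward for 7 of the 7 genes not set by the bar (background 39.5% in either direction and 26.5% upward), by 3.92 ± 0.37 for MS to 8.34 ± 1.16 for CPS2 as fitted. The young leaf side of these rests on the R parent young leaf arrays described above. Between mature root and mature leaf it moved upward for 5 of the 7 (background 47% and 20.9%), CPS4, KSL7, CYP99A2, CYP99A3 and MS, and the change of KSL7 did not pass with any 1 of 3 single arrays left out (1.14 to 1.37). From young to mature root it moved downward for 4 (background 45.9% in either direction, 25.5% downward and 20.4% upward) and upward for MS, while for CPS4 and CYP99A2 the change did not pass. The hybrid minus R parent difference moved downward for 7 of the 7 between young root and young leaf (background 44.3% and 31.9%). It moved downward for 4 between mature root and mature leaf (background 31.3% and 12.4%). Of these, KSL7 did not pass with log2(value + 16) (-0.88, limma, adjusted p = 0.072) or with the spike-in covariate (-1.20, adjusted p = 0.174). Nor did KSL7 pass without hybrid mature root array 1 (-1.41, adjusted p = 0.057) or by its other probe set (-0.02, adjusted p = 0.963). CPS4 did not pass with the covariate (-2.00, adjusted p = 0.146). From young to mature root the difference moved upward for 3 (background 32.4% and 17.8%).

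The genes were also read in the order in which they lie on the chromosome. In the annotation the chromosome 4 stretch from CPS4 to CYP99A2 held 6 protein-coding genes, of which 5 had a probe set, in the order CPS4, CYP99A3, MAS, KSL4 and CYP99A2. All but MAS were members. MAS, the dehydrogenase that completes momilactone A, stood at 5.80, 6.48 and 6.56 in young roots of the R parent and at 2.63 to 4.11 on the other 6 young root arrays, at least 1.28 higher. No other group of MAS reached a mean of 5, so this is given as a description. Of the genes just outside, ARP9 did not separate the parents in young roots, with means of 9.49 (B) and 9.53 (R) and a difference of 0.04 ± 0.18, and the unnamed LOC4335098 stood at 11.91 and 11.80.

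The chromosome 2 stretch from CYP76M5 to CYP76M6 held 10 protein-coding genes, of which 9 had a probe set and 4 were members. CYP76M8, a P450 beside CYP76M5, was read in young roots of the R parent alone, at 6.80, 7.27 and 7.11 against 3.61 to 4.35 on the other 6 arrays, at least 2.06 higher. It too met the bar only through these roots. LOC4329723, which the annotation leaves unnamed and which is singled out here after its values were seen, stood at 10.99, 10.90 and 11.08 in young roots of the R parent, at 2.90, 5.56 and 6.42 in the B parent and at 5.38, 5.62 and 5.74 in the hybrid. In young leaves it had the opposite order, at 9.31, 8.91 and 10.92 in the B parent, 10.25, 9.78 and 10.98 in the hybrid and 5.16, 4.86 and 2.87 in the R parent. Not every neighbour took part. CYP71Z6, a P450 next to CYP71Z7, was under 5 in all root groups, with means of 2.74, 2.63 and 2.84 in young roots, and stood at 8.98, 8.42 and 8.05 in mature leaves of the B parent, hybrid and R parent. KSL5 and CYP76M6 did not reach 5 in any group.

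**Figure D3:**
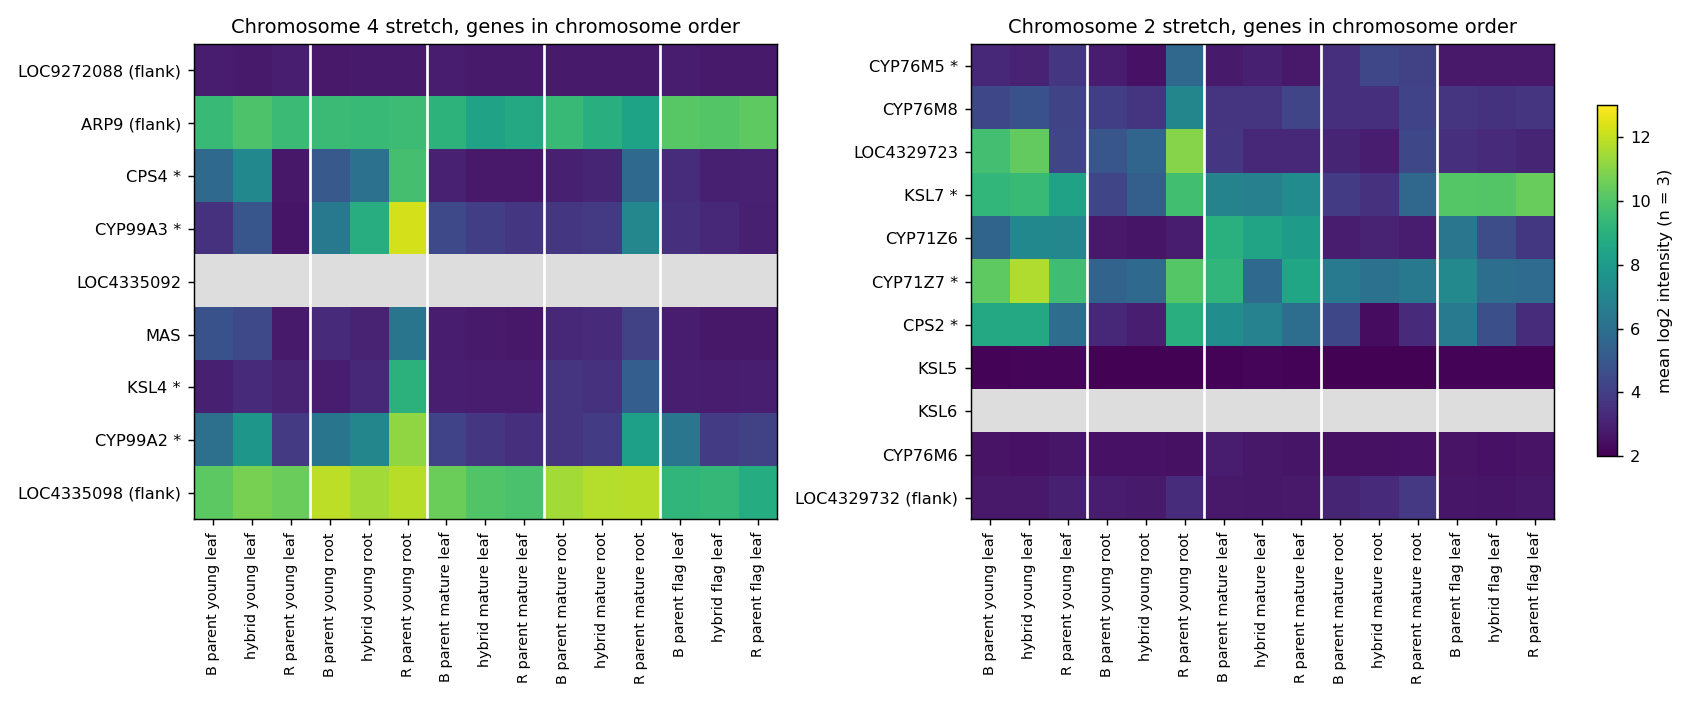
Mean log2 intensity (colour, n = 3) of the genes of the chromosome 4 and chromosome 2 stretches and of flanking genes that have a probe set, in chromosome order from top to bottom, over the 15 groups; members are starred and grey rows have no probe set of their own. In young roots of the R parent the members of both stretches reach 5 together with MAS, CYP76M8 and LOC4329723, while CYP71Z6, KSL5 and CYP76M6 do not.

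Other genes of the pathway were read from lists that leave out the members. Of the further P450 and dehydrogenase genes, 6 of 7 genes with a probe set were tested. Leaving aside MAS and CYP76M8, 3 of the other 4 were higher in young roots of the R parent than of the B parent and none was lower (median difference 1.70, against 0.05 over all probe sets; background 25.8% in either direction and 15% upward, as above). These were CYP701A8, a kaurene oxidase relative of diterpenoid synthesis, KOL5, and the kaurene oxidase gene matched as KO1, an enzyme of gibberellin synthesis. CYP701A8 averaged 10.63 in R parent, 4.92 in B parent and 6.91 in hybrid roots, so that the parents differed by at least 5.63 (limma, adjusted p = 1.02e-07). Of the 4 genes without MAS and CYP76M8, 0 separated the parents in mature roots (background 53.5%). In young leaves 1 of the 4 was higher and 1 lower in the R parent (background 42.9%). MAS and CYP76M8 were under 5 in all mature root and young leaf groups and so could not be called there. Of the other cyclases 4 had a probe set and 2 were tested, CPS1 and KS1, which serve gibberellin synthesis. KS1 was higher in young roots of the R parent, with means of 6.02 against 4.64, at least 1.02, and CPS1 did not pass. In mature roots KS1 was lower in the R parent, with means of 4.24 against 5.78.

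Genes that supply the plastid precursor were 5 in number by their names. Of these SPS1, a name other synthases also carry, and a second gene named MCS, whose other names differ, have an uncertain place on the list. In young roots 3 of 5 were higher in the R parent than in the B parent and none was lower (median difference 1.60, background 15% upward), and these were the 3 other genes. DXR, the reductoisomerase of the plastid path, averaged 10.55 in R parent and 7.95 in B parent roots (2.60 ± 0.31, limma, adjusted p = 2.52e-08). CDPMEK, a kinase of the same path, had 8.96 and 7.16, and the MCS gene that also carries the name ISPF had 9.35 and 7.76. In mature roots 3 were again higher in the R parent (median difference 1.32, against -0.06 over all probe sets, background 25.7% upward), DXR by 2.63 ± 0.31 (limma, adjusted p = 7.61e-09), and 1 of these was the second MCS. In young leaves 3 were lower in the R parent (background 27.1% downward), with R minus B parent differences of -1.48 for DXR, -1.15 for the MCS gene also named ISPF and -0.67 for SPS1.

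Of 15 regulators and signalling genes, 4 were higher and 1 lower in young roots of the R parent (median difference 0.35, background 15% upward), and 12 were higher and none lower in mature roots (median difference 1.52, background 25.7% upward). In mature roots TGAL4, a bZIP factor matched as OsbZIP79, averaged 7.73 in R parent and 3.69 in B parent roots, at least 2.73 higher. AOS2, of jasmonate synthesis, was higher by at least 3.65, and JAR1, which conjugates jasmonate, had means of 11.10 and 7.76. In young leaves 7 of the 15 were lower and 1 higher in the R parent (background 27.1% downward), among them WRKY76, a repressor of defence, with 4.22 against 7.97. Of 7 defence markers 6 were higher and none lower in young roots of the R parent (median difference 1.96), and 6 higher and 1 lower in mature roots (median difference 2.58), against the same backgrounds. Cht1, a chitinase gene, averaged 12.78 in young roots of the R parent, 2.89 in those of the B parent and 7.58 in the hybrid, and PBZ1, a pathogenesis-related gene, at 12.78, 8.51 and 10.52. In young leaves 4 of the 7 were higher in the R parent and none was lower (background 42.9% in either direction and 15.7% upward).

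**Figure D4:**
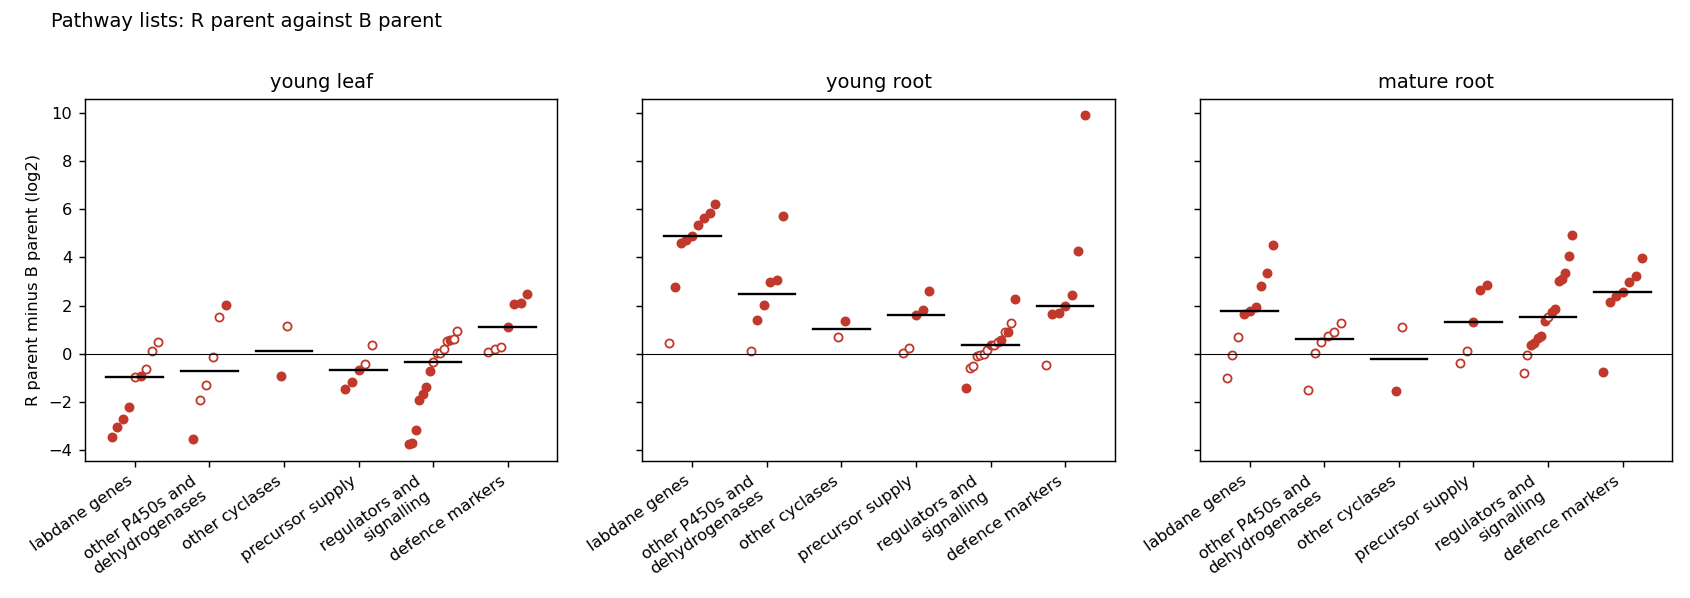
R minus B parent difference in mean log2 intensity of each gene tested (points; filled where called) in the labdane gene set and 5 lists of related genes, in young leaf, young root and mature root, with the median of each list as a black bar; differences are drawn as fitted even where the lower mean was near background. The 9 labdane genes tested, KSL4 and CYP76M5 among them, have medians of -0.94, 4.88 and 1.79 in the 3 panels.

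The profiles were compared over the 15 group means, as a description, since the points share arrays and include means near background. Among CPS4, KSL4, CYP99A2 and CYP99A3 the correlation of 2 genes lay between 0.739 and 0.954 over 6 pairs. Among CPS2, KSL7, CYP71Z7 and CYP76M5 it lay between -0.071 and 0.834, and between the stretches from -0.109 to 0.881 over 16 pairs. MS correlated with these 8 genes at -0.432 to 0.724. The highest value between the stretches, 0.881, was that of KSL4 and CYP76M5. Both met the level bar only through R parent roots, so that every value with either gene was set in part by the bar. Among 2071 other genes with a descriptive name, those whose profile was most like the mean standardized profile of the 9 genes tested were MAS (r = 0.948), CYP76M8 (0.933), DXPS (0.805), ABCG32 (0.766) and Cel9C (0.740). KSL4 and CYP76M5 within that profile, and MAS and CYP76M8, met the level bar only through R parent roots. Their likeness, here and in the lists that follow, was therefore set in part by the bar. ABCG32 and Cel9C reached 5 in young roots of the R parent (5.53 and 6.17) and in no other root or young leaf group. Their likeness may thus also have been set in part by the bar. DXPS, named for the first enzyme of the plastid precursor path, averaged 9.17 in young roots of the R parent and was under 5 in those of the B parent (4.19) and hybrid (4.11).

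For the members on chromosome 2 the 5 closest genes were CYP701A8 (r = 0.842), DXPS (0.810), CYP76M8 (0.776), NH4 (0.703) and MAS (0.678). For those on chromosome 4 they were MAS (0.879), UAH (0.851), CML20 (0.849), GSTU6 (0.843) and Cht1 (0.842). Without MS the latter list read MAS (0.871), Cht1 (0.850), EXPB18 (0.844), CYP76M8 (0.840) and ADC2 (0.829). Of those 5 names MAS and Cht1 stood on the list with and without MS. EXPB18 reached 5 in young (6.565) and mature (5.994) roots of the R parent and in no other root or young leaf group. Its likeness too may have been set in part by the bar.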

How the data were processed

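The authors deposited 1 table of intensity values for 57381 probe sets on 45 arrays, made with GCRMA per the submitters' processing notes and not log-transformed. The log2 of each value was taken, with a floor of 1 that no value reached, and nothing further was normalized. Of the probe sets 22436 are paired with 1 gene by the array's annotation, 95 with several and 34850 with none; genes were named through the RefSeq table of the japonica assembly ASM3414082v1. Probe sets other than the 123 controls with a group mean of 5 or more were tested.

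A model of 15 group means was fitted with limma 3.58.1 (R 4.3.3, 30 residual degrees of freedom), with p-values adjusted by Benjamini-Hochberg within each of 36 comparisons. Tested on simulated data for R minus B parent in young roots (24130 probe sets), it called 51 of 100 with a 2-fold change, 92 of 100 with a 4-fold change and 6 of 23930 with none. A gene with several probe sets was counted by the one with the highest mean.

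The members and the lists of related genes were chosen with earlier results of these data known. All members are named; of each list up to 4 called genes by size, with KOL5 and the neighbours on the chromosome named outside that rule after their values were seen; and the 5 genes of most similar profile. Counts leave out genes that met the level bar only through R parent roots where they concern those roots, a choice made after seeing the data.

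Alternatives were quantile normalization, no level filter, log2(value + 16), array weights, only the stages compared, the replicate number as a block, the other probe set of KSL7 and each array left out; the spike-in covariate was added after seeing the data. Figures were drawn with matplotlib 3.10.9.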

Additional observations from a re-analysis of the deposited data

Results flagged for a closer look

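The 41 values here are tests of a difference between differences on the log2 scale as fitted, each past an adjusted p of 0.05 with limma, and they are flagged because the effect of genotype differed between tissues or ages. Many rest on means near background on 1 side, so that their size depends on values that have no order, and their causes were not tested. KSL4 and CYP76M5 met the level bar only through R parent roots, so that their values here were set in part by the bar.

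The R minus B parent difference was larger in young root than in young leaf by 8.34 for CPS2, 7.76 for CPS4, 7.08 for CYP99A2 and 6.79 for CYP99A3. It was larger by 6.28 for KSL7, 6.08 for KSL4, 5.24 for CYP71Z7, 3.92 for MS and 2.31 for CYP76M5. For CPS2, CPS4, CYP99A2 and KSL7 the R parent was called lower in young leaf and higher in young root. The spike-ins of the R parent young leaf arrays, at 13.01 against 11.92 in the B parent, stand beside all 9 values.

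The same difference was larger in mature root than in mature leaf by 5.22 for CYP99A2, 4.04 for CYP99A3, 3.06 for CPS4, 1.86 for MS, 1.68 for KSL4 and 1.44 for KSL7. From young to mature root it changed by -6.66 for CPS2, -4.63 for CYP71Z7, -4.58 for KSL4, -3.55 for KSL7, -2.50 for CYP99A3 and -2.07 for CYP76M5, and by 1.48 for MS.

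The hybrid minus R parent difference in young root minus that in young leaf was -8.68 for CPS2, -8.09 for CYP99A2, -8.07 for CPS4, -6.40 for CYP71Z7 and -6.01 for KSL4. It was -5.77 for CYP99A3, -5.44 for KSL7, -4.20 for MS and -2.50 for CYP76M5. For mature root minus mature leaf it was -4.45 for CYP99A2, -3.50 for CYP99A3, -2.61 for CPS4, -1.68 for KSL4 and -1.68 for KSL7. From young to mature root it changed by 4.97 for CPS2, 4.13 for KSL4, 3.98 for CYP71Z7, 3.30 for CYP76M5 and 2.18 for KSL7. Both sets of values share the R parent arrays.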

How the results depend on the processing

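The counts of genes called were computed for 36 comparisons under 8 alternatives, and 254 of 288 stayed within 1.5 times of the values given. In young and mature roots the counts of R minus B parent (8 and 6) and hybrid minus R parent (8 and 5), which include KSL4 and in young roots CYP76M5 (without them 6, 5, 6 and 4), did so under each alternative and with any array left out. Of 158 differences called, 114 kept their call throughout. In young leaves the R minus B parent count of 5 was 2 with array weights, 3 with the spike-in covariate and 3 with only the stage compared, the hybrid minus R parent count of 6 was 2 with the covariate and 3 with only the stage compared, and the hybrid minus B parent count of 1 was 4 with weights, 2 with log2(value + 16), 2 with the replicate block and 0 with quantile normalization, no level filter, the covariate and only the stage compared. For young roots the hybrid minus B parent count of 2 was 1 under each alternative except array weights. For mature leaves the hybrid minus R parent count of 1 was 0 with quantile normalization, no level filter, the replicate block and only the stage compared. For flag leaves the R minus B parent count of 2 was 1 without the level filter and 0 with only the stage compared, and the hybrid minus B parent count of 1 was 2 with weights and 0 with only the stage compared. By age, the B parent mature minus young root count of 4 was 2 with the replicate block, the R parent mature minus young leaf count of 2 was 1 with weights, the block and the other probe set of KSL7, the hybrid flag minus mature leaf count of 2 was 1 with no level filter and the block, and the hybrid minus R parent difference between mature root and mature leaf, 5, was 3 with the covariate. With the other probe set of KSL7 its root minus leaf difference in R parent seedlings turned from 1.33 to -0.22 and its mature minus young root difference in the hybrid from -1.74 to 0.014, both near background.

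With each array left out in turn, counts for R minus B parent ranged from 2 to 5 in young leaves (2 without the third B parent array) and 0 to 2 in flag leaves, for hybrid minus B parent from 0 to 2 in young leaves, 1 to 2 in young roots, 0 to 1 in mature leaves (0 without the first B parent array) and 0 to 1 in flag leaves, and for hybrid minus R parent from 4 to 6 in young leaves and 0 to 0 in mature leaves. For mature minus young leaf in the R parent the range was 1 to 2, and for flag minus mature leaf 1 to 3 in the B parent and 1 to 2 in the hybrid.

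Same-numbered arrays do not pair: their deviations correlated at -0.506 to 0.425, over 0.1 throughout in 1 of 15 sets.

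Counts over all probe sets moved by over 1.5 times as follows. With array weights R minus B parent in young roots had 10132 calls in place of 6221, hybrid minus R parent 8146 in place of 4488 in young roots, 3662 in place of 1477 in mature leaves and 3708 in place of 2360 in flag leaves, and hybrid minus B parent 4146 in place of 2358 in mature leaves. With the covariate these were 865 for the last, 5448 in place of 11507 for hybrid minus R parent in young leaves, 5550 in place of 8640 in mature roots, 4673 in place of 7554 between mature root and leaf and 3934 in place of 7809 between the roots. In flag leaves only the stage compared gave 1671 in place of 2652 and 1443 in place of 2360. Quantile normalization moved the upward share of calls by over 10 points in these comparisons: for R minus B parent from 36.7% to 49.3% in young leaves and from 61.9% to 51.9% in mature leaves; for hybrid minus B parent from 66.3% to 54.1% in young leaves and from 65.0% to 52.7% in flag leaves; for hybrid minus R parent from 72.6% to 54.2% in young leaves and from 27.1% to 44.6% in mature leaves. For the R parent it moved from 71.7% to 57.7% between young root and young leaf and from 62.7% to 50.6% between mature and young leaf, and between young root and young leaf from 67.0% to 49.97% for R minus B parent and from 28.1% to 47.0% for hybrid minus R parent. The median of all probe sets moved from 0.65 to 0.16 for young root minus young leaf in the R parent and from 0.20 to 0.03 for hybrid minus R parent in young leaves. Values near background, rather than a count of reads, limit what can be said of the low genes, and 3 arrays per group leave calls near the threshold open to single arrays.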
